A study of Mus musculus with 28 samples.

Results

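The 4 Hox gene clusters of the mouse were examined as a set of regions in mouse embryonic fibroblasts (MEFs). The regions were fixed by position in the mm9 build. HoxA was taken as chromosome 6 from 52095001 to 52225000, HoxB as chromosome 11 from 96050001 to 96235000, HoxC as chromosome 15 from 102745001 to 102870000 and HoxD as chromosome 2 from 74490001 to 74610000. They hold 38 member genes, of which 10 lie in HoxA (Hoxa2 to Hoxa13), 10 in HoxB (Hoxb1 to Hoxb13), 9 in HoxC (Hoxc4 to Hoxc13) and 9 in HoxD (Hoxd1 to Hoxd13). Together the clusters span 560 kb, or 2800 of the 13274547 bins of 200 bp into which the deposited segmentations divide the genome (0.0211%).

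The cells were MEFs of strain 129s2 at passages 3 to 4, which the design text calls 14.5 day, and were either wild type (WT) or SirT7-/- (KO), that is, without the sirtuin deacylase SIRT7. Treatment is given as NT or GS. Neither abbreviation is spelled out in the labels, and the title of the series concerns glucose starvation. Of the 28 chromatin immunoprecipitation sequencing (ChIP-seq) libraries, 8 were for H3K27me3, the histone mark of Polycomb repressive complex 2, and 8 for the histone variant macroH2A1.1 (mH2A1 in the titles), with 2 per genotype and treatment each. A further 4 libraries were for SIRT7, all from WT cells and 2 per treatment, and 8 were input. The data used here were 4 chromatin segmentations, 1 for each genotype and treatment (WT-NT and WT-GS, KO-NT with KO-GS), and 1 list of SIRT7 peaks for each treatment. Each segmentation puts every bin into 1 of 4 states, U1 to U4. By the labels it rests on replicates 1 and 2 of both H3K27me3 and mH2A1 pooled, so no state share has a replicate error and no test between conditions was possible. What each state stands for, whether it was defined alike in the 4 segmentations, the number of animals and the sequencing depth are nowhere stated in the sources used here. The files hold no expression values, so the fibroblast label could not be checked against marker genes.

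Hox genes encode homeodomain transcription factors that give cells their position along the body axes. Within a cluster the genes stand in the order of their paralogous groups, with group 13 genes, used in the most posterior and distal body parts, at 1 end and the low-numbered, anterior genes at the other. Polycomb complexes keep silent Hox genes under broad domains of H3K27me3, and fibroblasts are known to retain a Hox expression pattern that reflects where in the body they came from.

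Besides the protein-coding members, each cluster carries microRNA genes, and their mature sequences fall into seed families shared between clusters. They are shown because they are a feature common to the clusters that the choice of regions did not use. In the mature sequences (RefSeq), the seed, bases 2 to 8, is in capitals.
miR-196b-5p, between Hoxa10 and Hoxa9: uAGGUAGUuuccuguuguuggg
miR-196a-5p, between Hoxb13 and Hoxb9 and again between Hoxc10 and Hoxc9: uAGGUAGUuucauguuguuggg
miR-10a-5p, within the span of Hoxb3: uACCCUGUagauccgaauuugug
miR-10b-5p, within the spans of Hoxd3 and Hoxd4: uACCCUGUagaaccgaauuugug
miR-615-3p, within Hoxc5: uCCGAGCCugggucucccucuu
The miR-196 copies in HoxA, HoxB and HoxC share the seed AGGUAGU, and the miR-10 copies in HoxB and HoxD share ACCCUGU. The seed of miR-615-3p, CCGAGCC, is shared with neither.

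Promoters are shown for the genes at the ends of HoxA and HoxD, so that genes at opposite ends of a cluster can be set side by side. RefSeq gave an entry for 22 of the 38 members (24 promoters). The sequences are the 250 bases upstream of the start in GRCm38.p6, with each CG dinucleotide in capitals. The segmentations use mm9, so these coordinates cannot be read against the states.
Hoxa13, 13 end of HoxA, chr6:52260881-52261130, minus strand, 35 CG: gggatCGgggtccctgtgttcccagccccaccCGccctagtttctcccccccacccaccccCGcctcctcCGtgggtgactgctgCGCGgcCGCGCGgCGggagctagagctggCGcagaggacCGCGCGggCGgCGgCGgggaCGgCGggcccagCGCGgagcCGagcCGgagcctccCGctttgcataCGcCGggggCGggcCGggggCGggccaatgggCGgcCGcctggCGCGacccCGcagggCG
Hoxa2, 1 end of the HoxA members, chr6:52164832-52165081, minus strand, 6 CG: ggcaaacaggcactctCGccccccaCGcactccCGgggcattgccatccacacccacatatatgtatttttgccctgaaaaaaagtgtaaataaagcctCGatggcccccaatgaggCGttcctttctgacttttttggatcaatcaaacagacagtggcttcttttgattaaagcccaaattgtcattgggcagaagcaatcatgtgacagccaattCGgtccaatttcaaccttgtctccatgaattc
Hoxd13, 13 end of HoxD, chr2:74667975-74668224, plus strand, 31 CG: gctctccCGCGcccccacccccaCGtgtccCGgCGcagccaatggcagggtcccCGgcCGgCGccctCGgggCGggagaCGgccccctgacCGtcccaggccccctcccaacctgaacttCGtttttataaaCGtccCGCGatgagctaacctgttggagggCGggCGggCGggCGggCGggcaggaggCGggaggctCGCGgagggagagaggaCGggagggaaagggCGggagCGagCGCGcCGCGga
Hoxd1, 1 end of HoxD, chr2:74762730-74762979, plus strand, 24 CG: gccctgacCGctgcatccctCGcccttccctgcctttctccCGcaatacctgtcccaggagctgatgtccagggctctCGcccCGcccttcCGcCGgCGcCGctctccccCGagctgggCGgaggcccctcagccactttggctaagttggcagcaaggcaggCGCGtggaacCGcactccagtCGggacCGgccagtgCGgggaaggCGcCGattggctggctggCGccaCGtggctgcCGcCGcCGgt
Hoxa13 and Hoxd13, the group 13 genes of limb and genital development, had 35 and 31 CG dinucleotides, against 6 in the promoter of Hoxa2, a hindbrain and neural crest gene. Hoxd1, at the opposite end of HoxD, had 24, so the gap was wide between the ends of HoxA and small between those of HoxD. Over the 24 member promoters the median was 12.5 CG (range 2 to 35), and over all 32851 promoters of the same length it was 6.00. At least 10 CG were found in 15 of 24 member promoters (62.5%) and in 37.8% of all promoters. The member promoters were mostly of HoxA and HoxD, with only Hoxb8, Hoxb4 and Hoxb1 from HoxB and Hoxc4 from HoxC. The median and share therefore say little about HoxB and HoxC.

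The Hox clusters lay almost wholly in states U3 and U4 under every condition. In WT cells U3 covered 86.4% of the clusters under both treatments, and in KO cells 91.2% (NT) and 88.2% (GS). Over the whole genome the U3 share was 7.88% (NT) and 8.42% (GS) in WT, and 9.04% (NT) and 8.50% (GS) in KO, so U3 was 10.1 to 11.0 times as frequent in the clusters. U4 covered 11.0% (NT) and 8.79% (GS) of the clusters in WT, and 6.50% (NT) and 9.61% (GS) in KO, which was 5.12 to 6.13 times its genome share. U3 and U4 together made up 97.5% (NT) and 95.2% (GS) of the clusters in WT, and 97.7% (NT) and 97.8% (GS) in KO. U1, the state of 70.1 to 73.5% of the genome, took 0.821 to 1.75% of the clusters, and U2, the state of 16.4 to 19.8% of the genome, took 0.464 to 3.29%.

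Each cluster had this makeup, with HoxA the most mixed. Its U3 share ran from 82.2% (KO-GS) to 86.8% (KO-NT), and U3 and U4 together covered 88.5 to 92.2% of it. HoxB had 85.2 to 91.6% U3, HoxC 88.8 to 93.3% and HoxD 86.7 to 93.2%, and in these 3 clusters U3 and U4 together covered 94.3 to 100%. In HoxC every bin was U3 or U4 in WT-NT and in both KO segmentations, and 98.7% were in WT-GS. U1 was found in HoxA in every segmentation (3.54 to 6.62%), in HoxD in KO-GS (1.5%), and in no bin of HoxB or HoxC.

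**Figure D1:**
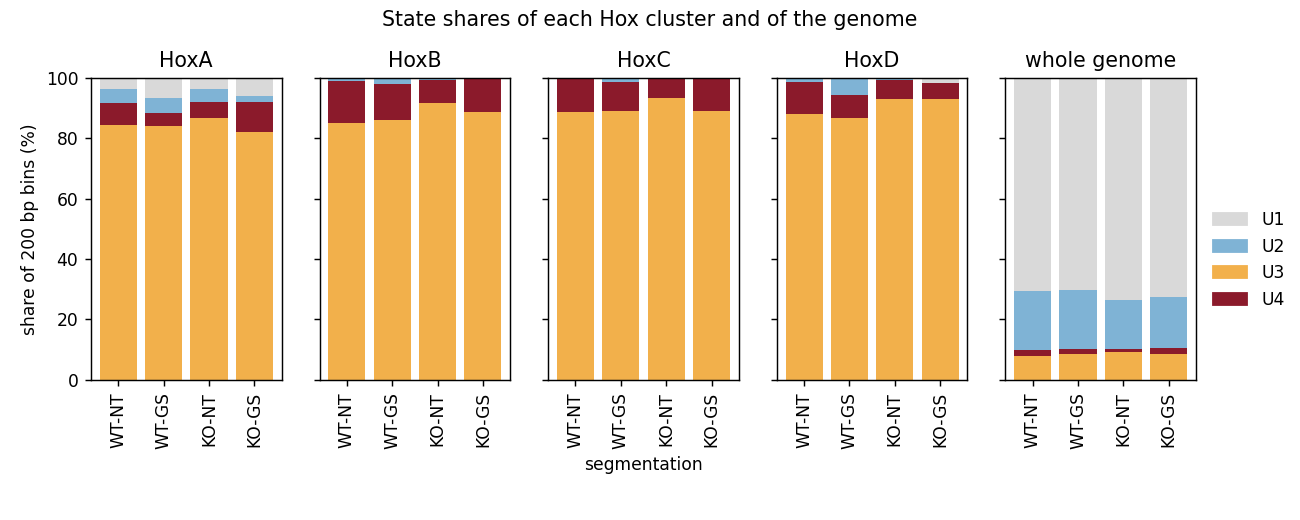
Stacked bars give the percent of 200 bp bins in each state (U1 to U4) for HoxA, HoxB, HoxC, HoxD and the whole genome in the 4 pooled segmentations. U3 fills 82.2 to 93.3% of each cluster and 7.88 to 9.04% of the genome.

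Few other autosomal windows of their size held as much U3 and U4. Each cluster was set against autosomal windows of its own length, end to end and clear of all Hox clusters. The windows were tiled from the chromosome start, whereas the cluster bounds were placed on the gene clusters. A like region that crosses a window border can thus be missed, so the counts may understate how many there are. The share of HoxB in U3 or U4 was reached by 0 of 13346 windows in WT-NT and by 1 in each other segmentation. For HoxC 1 to 6 of 19761 windows reached it, for HoxD 5 to 45 of 20585, and for HoxA 39 to 88 of 19002. The median window held 0.480 to 1.73% of U3 or U4, depending on the window length and the segmentation.

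Most U3 segments inside the clusters were short, as over the genome. The longest of each cluster was far longer, with a length that varied between segmentations. The median U3 segment was 1.50 kb (NT) and 1.4 kb (GS) in the WT clusters, and 2.50 kb (NT) and 1.60 kb (GS) in KO. Over the genome it was 1.20 kb (NT) and 1.4 kb (GS) in WT, and 1.80 kb (NT) and 1.20 kb (GS) in KO. For U4 the median segment length was 1 bin, 0.200 kb, in the clusters as in the genome. The longest U3 segment was that of HoxC in WT-GS, 58.4 kb from 102809001 to 102867400, and 9 of the 93353 U3 segments of the genome in that segmentation were at least as long. In HoxB the longest was 47.4 kb, in KO-GS from 96172201 to 96219600, a length that 5 of 108294 U3 segments reached. In HoxA it was 51.6 kb, in WT-GS from 52112801 to 52164400 (16 of 93353), and in HoxD 28.6 kb, in KO-NT from 74548801 to 74577400 (258 of 79653). In other segmentations the longest was as short as 19.2 kb in HoxA (KO-GS, 358 of 108294) and 28.0 kb in HoxB (KO-NT, 280 of 79653). It was as short as 20.4 kb in HoxC (240 of 104484) and 16.4 kb in HoxD (515 of 104484), both in WT-NT. The longest U4 segments were 3.20 kb in HoxA, 2.20 kb in HoxB, 2.00 kb in HoxC and 1.00 kb in HoxD.

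**Figure D2:**
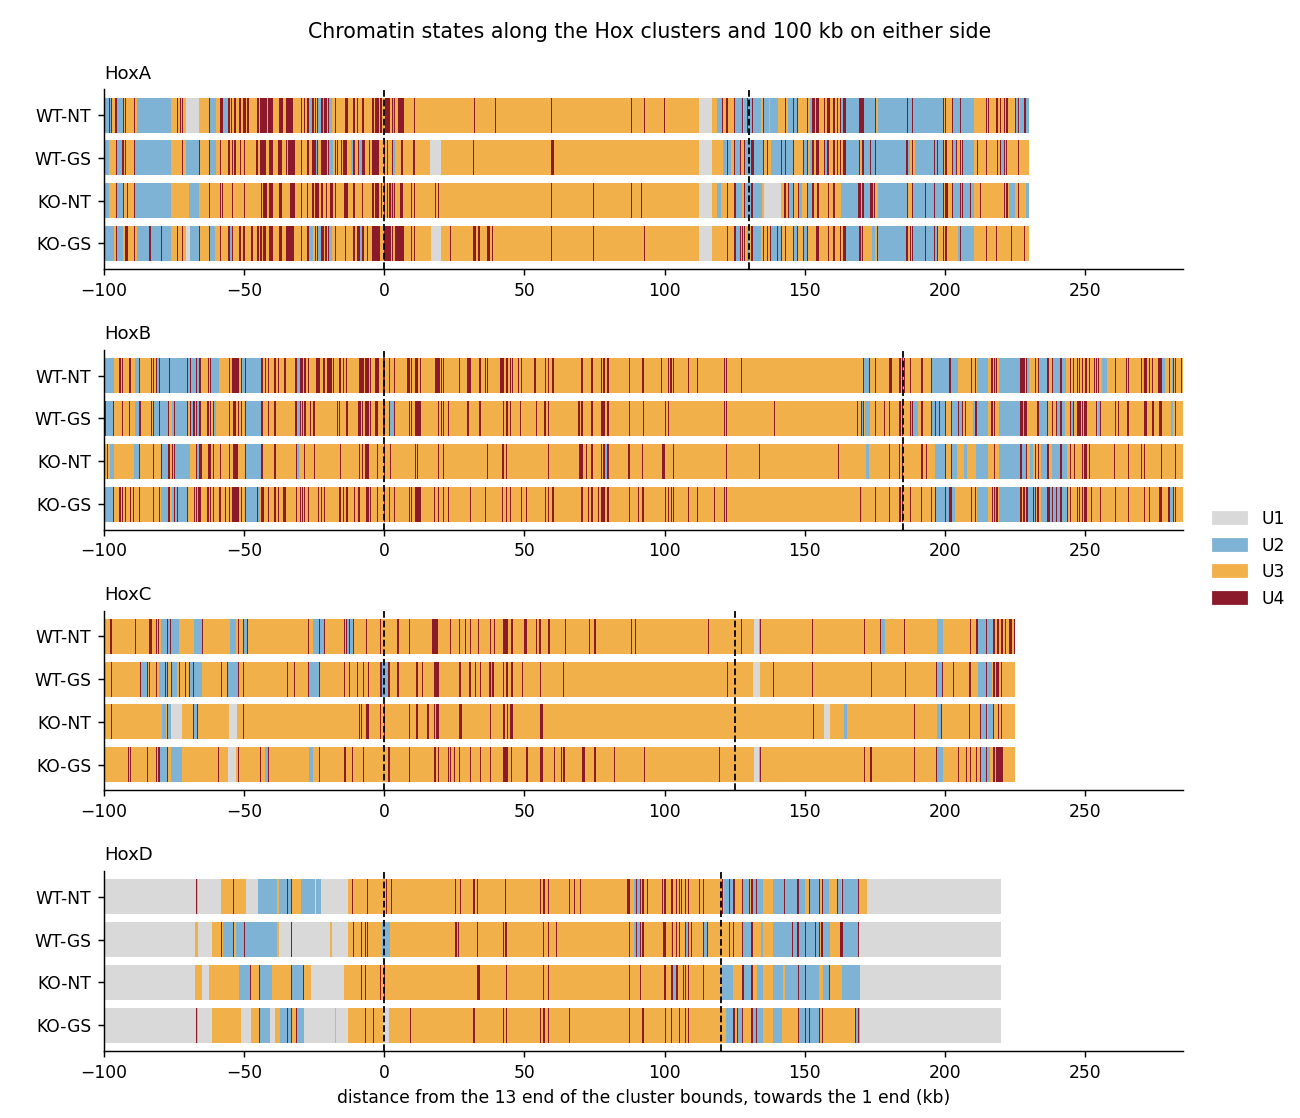
State of every 200 bp bin along each cluster and 100 kb on either side, in the 4 pooled segmentations, against the distance from the 13 end towards the 1 end (kb). Dashed lines mark the cluster bounds, between which U3 (orange) with short U4 segments (dark red) fills most of the length.

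Along the clusters, U4 was denser towards the 13 end in HoxA, HoxB and HoxC. In HoxD it was denser towards the 1 end, except in KO-GS, where the sides were nearly even. Over the 4 clusters the 13-side 50% of the length held 14.5% (NT) and 13.3% (GS) U4 in WT, and 8.92% (NT) and 14.3% (GS) in KO. The 1-side 50% held 7.58% (NT) and 4.29% (GS) in WT, and 4.07% (NT) and 4.86% (GS) in KO. In HoxC the 13 side had 13.1 to 18.8% U4 and the 1 side 0.321 to 4.81%. In HoxD the 13 side had 4.00 to 7.33% and the 1 side 5.67 to 14.0%. The 1 side was the higher in WT-NT, WT-GS and KO-NT, while in KO-GS the values were 5.33 and 5.67%.

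Each cluster was also divided into 10 equal sections, numbered from 1 at the 13 end. In HoxA, U4 was concentrated in section 1, at 38.5% (NT) and 18.5% (GS) in WT and 24.6% (NT) and 49.2% (GS) in KO, with a smaller share in section 10 (10.8 to 15.4%). Sections 4 and 6 to 9 of HoxA had at most 4.62% U4 in any segmentation. Section 10 of HoxA, its 1 end, also carried U2, at 46.2% (NT) and 43.1% (GS) in WT and 38.5% (NT) and 16.9% (GS) in KO. In HoxB sections 1 to 5 had 5.38 to 25.8% U4, sections 8 and 9 at most 2.17%, and section 10 again 10.9 to 20.7%. In HoxC sections 1 to 5 had 7.94 to 25.4% and sections 7 to 10 at most 4.84%. HoxD had 6.67% (KO-NT) to 26.7% (WT-NT) U4 in section 8 and 11.7 to 23.3% in section 9. In KO-GS its section 5 held as much as section 9, 11.7%. Section 7 of HoxD had 0% U4 and was U3 throughout in all 4 segmentations.

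**Figure D3:**
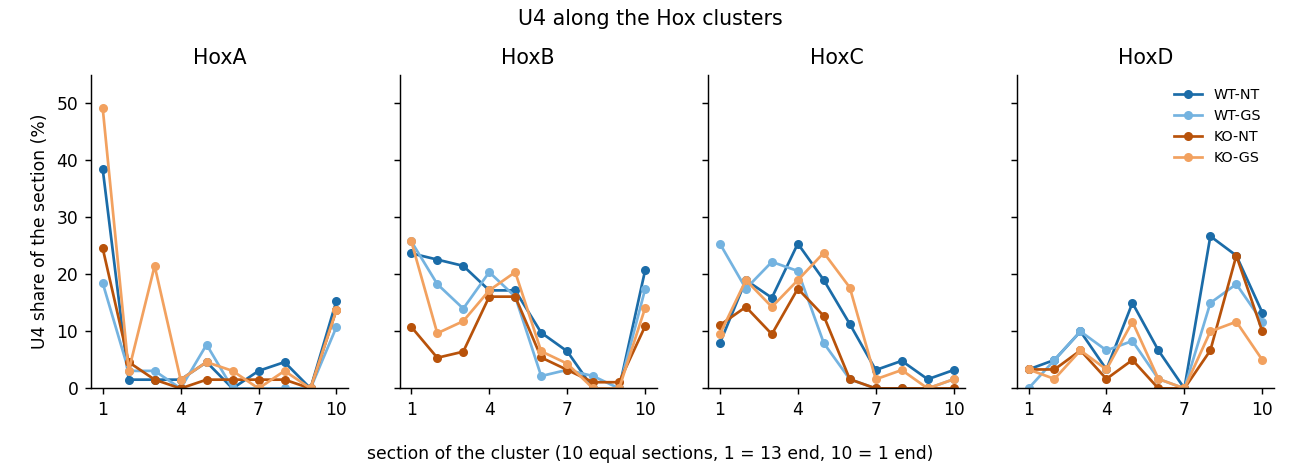
Percent of bins in U4 in each of 10 equal sections from the 13 end (1) to the 1 end (10) of each cluster, with 1 line per pooled segmentation. U4 peaks in section 1 of HoxA and in the 13-side sections of HoxB and HoxC. In HoxD it peaks in section 8 in WT-NT and in section 9 in WT-GS and KO-NT. In KO-GS sections 5 and 9 of HoxD are level at 11.7%.

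Bins of U4 in all 4 segmentations followed the same layout. There were 82 of them, 16.4% of the 501 bins that were U4 in any segmentation (14.3% over the genome). In HoxC all 14 such bins lay in the 13-side 50%, in HoxB 32 of 41 and in HoxA 11 of 16, and in HoxD 3 of 11. Their longest run was 1.00 kb, in HoxB from 96123601 to 96124600, 73.6 kb from the 13 end. In HoxA it was 0.800 kb, from 52218401 to 52219200, 5.80 kb from the 13 end.

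The first comparison was of GS with NT in WT cells. U4 covered 11.0% of the clusters in NT and 8.79% in GS, a difference of -2.25 percentage points, and was lower in GS in 4 of 4 clusters. The ratio of GS to NT was 0.796 in the clusters and 0.811 over the genome. HoxA went from 7.08 to 4.31% U4, HoxB from 13.9 to 12.0%, HoxC from 11.2 to 9.76% and HoxD from 10.7 to 7.67%. By cluster the ratio ran from 0.609 in HoxA to 0.871 in HoxC. In percentage points the difference was larger in the clusters than over the genome (-0.382), where U4 is rare, and with bins of 1 kb it was -1.25 in the clusters. U3 was at 86.4% in both, and U2 was 1.71% in NT and 3.29% in GS, a difference of 1.57 percentage points against 0.250 over the genome. With each cluster trimmed by 10 kb at both ends it was 0.333, and with segments under 1 kb joined to a neighbour 0.929. In HoxD, U2 went from 1.33 to 5.67%, with 22 bins going from U3 to U2. The longest U2 segment there lay at the 13 bound in GS, with 2.20 kb from 74490001 to 74492200 counted inside the bound, where segments were cut.

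In WT, 320 of the 2800 cluster bins (11.4%) were in different states in NT and GS, against 9.54% of all bins. The share was 12.5% in HoxA, 10.5% in HoxB, 11.5% in HoxC and 11.7% in HoxD. Split by starting state, the share of change was below that of the genome for U3 and near it for U4, with no test. Of the bins that were U3 in NT, 6.32% had another state in GS, against 19.6% over the genome. Of the bins that were U4 in NT, 48.5% had another state in GS, against 46.6%.

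In KO cells the U4 difference between GS and NT had the opposite sign. U4 covered 6.50% of the clusters in KO-NT and 9.61% in KO-GS, a difference of 3.11 percentage points and a ratio of 1.48 (1.77 over the genome). The difference was 1.79 with bins of 1 kb and 1.82 with segments under 1 kb joined. It went from 5.08 to 10.0% in HoxA, from 7.68 to 11.0% in HoxB and from 6.72 to 11.0% in HoxC. HoxD was the exception, with 6.00% in NT and 5.50% in GS. U3 went from 91.2 to 88.2% and U2 from 1.50 to 0.464%, while over the genome U2 was 0.516 percentage points higher in GS. Within HoxA the higher U4 lay near the 13 end, from 24.6 to 49.2% in section 1 and from 1.54 to 21.5% in section 3. In the remaining sections of HoxA the U4 share was at most 13.8% in either KO segmentation.

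In KO, 284 cluster bins (10.1%) were in different states in NT and GS, against 11.2% of all bins. With segments under 1 kb joined the shares were 4.11% of the clusters and 10.6% of the genome. HoxA had 12.0% of its bins changed, HoxB 9.51%, HoxC 10.4% and HoxD 8.83%. Of the bins that were U3 in KO-NT, 7.09% had another state in KO-GS, against 27.4% over the genome. Of those that were U4, 39.6% had another state, against 36.8%.

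The next comparison was of KO with WT cells in NT. U4 was at 11.0% in WT and 6.50% in KO, a difference of -4.54 percentage points (-2.86 with bins of 1 kb), and U3 at 86.4 and 91.2%. U4 was lower in KO in 4 of 4 clusters, at 5.08 against 7.08% in HoxA, 7.68 against 13.9% in HoxB, 6.72 against 11.2% in HoxC and 6.00 against 10.7% in HoxD. The ratio of KO to WT was 0.589 in the clusters and 0.524 over the genome. The lower U4 share of the KO clusters was thus found in the genome as a whole too.

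Between genotypes in NT, 283 cluster bins (10.1%) differed in state, against 11.4% of all bins. With segments under 1 kb joined the shares were 6.57 and 10.9%. HoxA differed least, in 6.46% of its bins, and the other clusters in 10.9 to 11.5%. Of the U3 bins of WT-NT, 2.98% were in another state in KO-NT, against 21.6% over the genome. Of the U4 bins of WT-NT, 62.5% were in another state in KO-NT, against 65.8%, and of the 193 such bins 191 were U3 in KO-NT.

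In GS the genotypes were closer in U4 and went different ways by cluster. U4 was at 8.79% in WT-GS and 9.61% in KO-GS, a difference of 0.821 percentage points (0.235 over the genome). Its 95% interval for counting error included 0, from -0.692 to 2.33. That interval treats bins as independent and ignores that both segmentations share them, so it is no test of the genotypes. The difference was 0.179 with bins of 1 kb, 0.333 in trimmed clusters and 0.250 in extended ones. In HoxA, U4 was 4.31% in WT and 10.0% in KO, and in HoxC 9.76 and 11.0%. In HoxB it was 12.0% in WT and 11.0% in KO, and in HoxD 7.67 and 5.50%. U2 was 3.29% in WT-GS and 0.464% in KO-GS, a difference of -2.82 percentage points against -2.88 over the genome, where U2 is far more frequent. In trimmed clusters it was -1.21. Of the 92 cluster bins that were U2 in WT-GS, 67 were U3 in KO-GS. In all, 297 cluster bins (10.6%) differed between the genotypes in GS, against 10.1% of all bins. With segments under 1 kb joined the shares were 5.79 and 9.55%. Of the U3 bins of WT-GS, 4.80% were in another state in KO-GS, against 21.7% over the genome. Of its U4 bins, 39.4% were in another state, against 37.4%.

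Most of the state changes in the clusters were exchanges between U3 and U4. Between treatments in WT, 222 of the 320 changed bins (69.4%) were such exchanges. Of these, 137 went from U4 to U3 in GS and 85 from U3 to U4, that is, 4.89 and 3.04% of the cluster bins, against 0.700 and 0.298% of all bins. In KO the exchanges were 79.2% of the changes, and the balance was the opposite, with 157 bins going to U4 and 68 to U3 (5.61 and 2.43%, against 0.844 and 0.204% of all bins). From WT to KO in NT they were 89.4%, with 191 bins going to U3 and 62 to U4 (6.82 and 2.21%, against 0.996 and 0.162%). From WT to KO in GS they were 71.0%, with 115 bins going to U4 and 96 to U3 (4.11 and 3.43%, against 0.561 and 0.393%). In each comparison the more frequent direction in the clusters was also the more frequent one over the genome, where such exchanges were 9.39 to 10.5% of all changes. The clusters start almost wholly in U3 or U4, which limits the other changes they can show. Of all bins only 9.90 to 10.1% start there. Of bins starting in U3, 3.51, 6.15, 2.56 and 4.75% went to U4 in the clusters, in the same order. Over the genome these shares were 3.79, 9.34, 2.05 and 6.66%. Of bins starting in U4, 44.3, 37.4, 61.8 and 39.0% went to U3, against 34.6, 19.3, 49.2 and 24.0% over the genome. With U3 and U4 counted as 1 state, 3.50, 2.11, 1.07 and 3.07% of cluster bins changed in the 4 comparisons in the order given above, and 8.54, 10.1, 10.3 and 9.13% of all bins. In HoxC every one of the 65 changes between treatments in KO and of the 68 between genotypes in NT was such a switch. In HoxA the switches were the smallest share, 38.3% of the changes between treatments in WT.

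**Figure D4:**
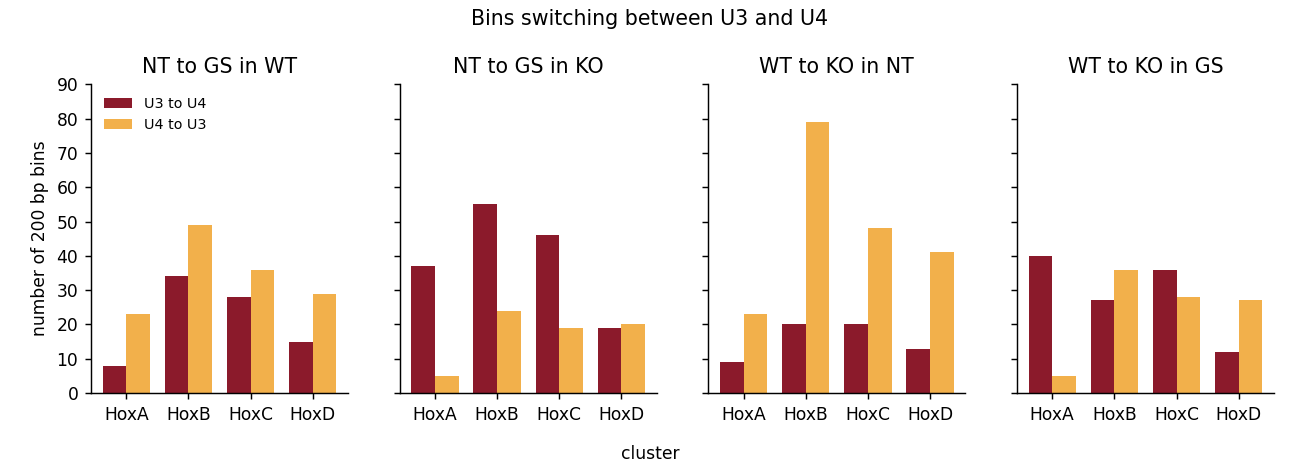
Number of 200 bp bins per cluster that go from U3 to U4 or from U4 to U3 in each of the 4 comparisons of pooled segmentations. Bins going from U4 to U3 are the more numerous in every cluster from NT to GS in WT and from WT to KO in NT, and the fewer in HoxA, HoxB and HoxC from NT to GS in KO.

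Changes in the clusters were short. They formed 153 runs of changed bins between treatments in WT, 147 in KO, and 159 and 144 between genotypes in NT and GS, each set with a median of 0.200 kb. Runs of a single bin made up 61.4 to 63.9% of them, against 39.0 to 42.9% over the genome. None of the runs reached 5 kb, whereas 41.0 to 49.2% of the changed bins of the genome lay in runs of at least that length. Most changes of the genome were not exchanges between U3 and U4, and run lengths were not compared with regions of like states. The difference in length is therefore not shown to be particular to the clusters. The longest run was 4.00 kb in WT and 3.40 kb in KO between treatments, and 2.20 kb in NT and 2.4 kb in GS between genotypes.

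Changes were more frequent on the 13 side over the 4 clusters pooled and in each of HoxA, HoxB and HoxC, but not throughout in HoxD. Between treatments in WT, 14.6% of bins in the 13-side 50% of the clusters and 8.22% in the 1-side 50% differed, and in KO 13.8 and 6.50%. Between genotypes the shares were 12.5 and 7.72% in NT, and 14.1 and 7.15% in GS. HoxC had the widest contrast, with 16.3 to 18.2% on the 13 side and 4.49 to 5.45% on the 1 side. In HoxD the sides were nearly even between treatments (12.0 and 11.3% in WT, 9.0 and 8.67% in KO). Between genotypes the 1 side of HoxD was the higher in NT (8.00 and 14.3%) and slightly so in GS (11.7 and 12.7%). Among the sections, 29.2 to 38.5% of bins changed in section 1 of HoxA and 15.4 to 46.2% in its section 10, against at most 6.15% in any of its sections 4 to 9. In HoxD the most variable were section 8 (10.0 to 33.3%) and section 9 (15 to 26.7%).

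Over all 4 segmentations, 2278 cluster bins (81.4%) never changed state, the same share as over the genome (81.4%), where 18.6% of bins changed in at least 1. What differed was the state that persisted. U3 in all 4 held for 2163 cluster bins (77.2%) and for 4.89% of the genome. U3 or U4 in all 4 held for 2636 bins (94.1%) and for 6.99% of the genome. By cluster, constant U3 covered 74.8% of HoxA, 77.1% of HoxB, 78.1% of HoxC and 79.3% of HoxD.

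The longest change in any cluster lay in HoxA near its 13 end and was shared by both genotypes. In WT a stretch of 4.00 kb, from 52204801 to 52208800 on chromosome 6 and 16.2 to 20.2 kb from the 13 end, was U3 in NT and U1 in GS. In KO the stretch of U1 in GS ran from 52204801 to 52208200 (3.40 kb). The 17 bins common to both were in U2, U3 or U4 in both NT segmentations and U1 in both GS segmentations. No other cluster bin had this pattern, and no cluster bin had the reverse one. The pattern was not rare elsewhere, with 0.526% of all bins in 7572 stretches, of which 1331 were at least as long as that in HoxA. The block of U3 and U4 that spans HoxA, with gaps of up to 2 kb bridged, ended at this stretch in GS. It was 168 kb in WT-NT and 178 kb in KO-NT, and 92.0 kb in both GS segmentations.

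A second stretch of U1 in HoxA was the same in all 4 segmentations. It covered 4.60 kb from 52108201 to 52112800, 112 to 117 kb from the 13 end, and formed the 1-side border of the HoxA block. The section that holds it, section 9, was 64.6% U3 in every segmentation, and 0% of its bins changed in any comparison. In HoxD, U1 lay at the 13 bound in KO-GS, with 1.80 kb from 74490001 to 74491800 counted inside the bound. Segments were cut at the bounds, so its full length is not given. A 2.00 kb stretch of HoxA from 52104401 to 52106400, near the 1 end, was U2 in WT-NT and U3 in WT-GS.

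Changes from U3 to U4, or back, that both genotypes or both treatments shared were few and short. From NT to GS, 21 cluster bins (0.750%) were U3 in both NT and U4 in both GS segmentations, and 4 (0.143%) the reverse, against 0.0730 and 0.0374% of all bins. The longest of these stretches, 0.800 kb, lay in HoxC from 102746401 to 102747200, 1.4 kb from the 13 end. Between genotypes, 23 cluster bins (0.821%) were U4 in both WT and U3 in both KO segmentations, and 9 (0.321%) the reverse, against 0.124 and 0.0230% of all bins. The longest of the stretches that were U4 in WT and U3 in KO were 0.600 kb, in HoxB from 96079601 to 96080200 and in HoxC from 102749601 to 102750200. For each of the 4 patterns the share was higher in the clusters than in the genome, as were the shares of U3 and U4 themselves.

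The clusters were also set beside other regions rich in U3 and U4, where the median share of change was higher. There were 209 other windows of 100 kb in which U3 and U4 covered at least 80% in every segmentation. In these the median share of bins that changed between treatments was 19.4% in WT (range 1.80 to 32.4%) and 17.6% in KO (2.60 to 44.8%), against 11.4 and 10.1% in the clusters. Between genotypes it was 22.2% in NT (3.40 to 46.8%) and 17.2% in GS (2.60 to 31.8%), against 10.1 and 10.6%. In each comparison the cluster value lay below the median, with 11 to 43 of the 209 windows at or below it, so the clusters were inside the range of such windows. Pooled, the windows held more U4 than the clusters in WT (19.8% in NT, 13.8% in GS) and in KO-GS (16.0%), and about as much in KO-NT (6.40%). Their pooled U3 share was 69.9 to 83.3%, against 86.4 to 91.2% in the clusters, so the windows were not matched to the clusters in U3.

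The sequence beside the clusters was more variable. In the 100 kb flanks 7.60 to 36.0% of bins changed, and 30 of the 32 flank values exceeded that of the adjoining cluster. The exceptions were the flank beyond the 1 end of HoxC between treatments in WT (9.60%) and between genotypes in GS (7.60%). The flanks of HoxD held 47.0 to 61.4% U1, below the 70.1 to 73.5% of the genome. Those of the other clusters held at most 6.80%. The flank beyond the 1 end of HoxA was rich in U2 (39.4 to 54.8%). HoxC was embedded in U3, at 73.2 to 89.0% of its flanks. The block of U3 and U4 around HoxB was the steadiest in length, 241 to 242 kb in all 4 segmentations, reaching 44.0 to 45.4 kb beyond the 13 bound. That of HoxC ranged from 130.4 kb (WT-GS) to 209 kb (KO-NT) and that of HoxD from 120.2 kb (KO-GS) to 141 kb (WT-NT). In HoxD the block started 12.8 and 14.2 kb outside the 13 bound in the NT segmentations, and inside that bound in both GS segmentations.

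**Figure D5:**
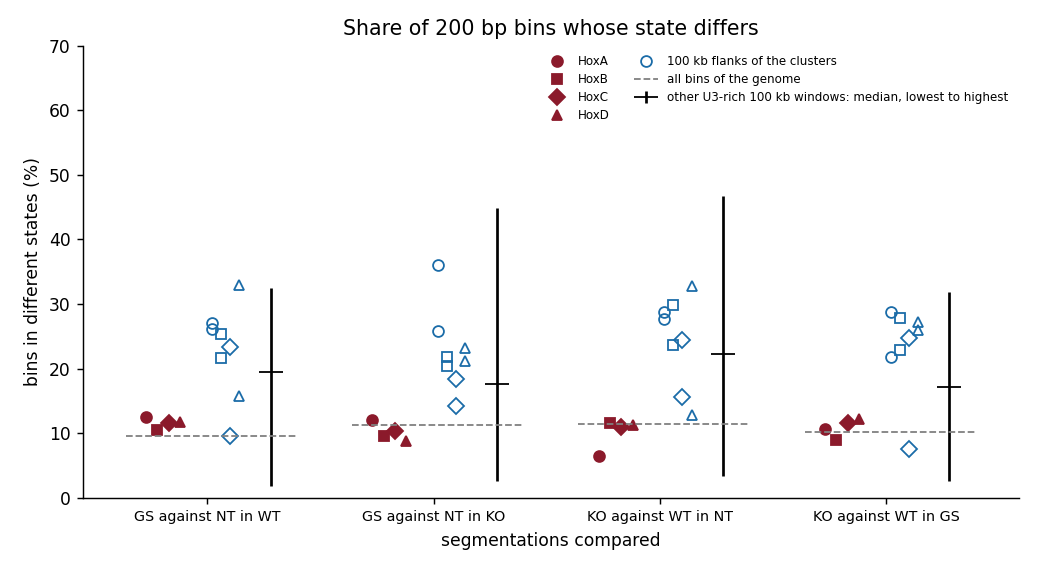
Percent of bins in different states in each of the 4 comparisons for each cluster (filled symbols), its 100 kb flanks (open symbols), the genome (dashed line) and 209 other windows of 100 kb rich in U3 and U4 (bar from lowest to highest, tick at the median). The clusters lie at 6.46 to 12.5%, beside 9.54 to 11.4% for the genome, and below the medians of these windows. The key calls the windows U3-rich, but they were chosen for U3 and U4 together.

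No SIRT7 peak lay in a Hox cluster. Of the 90 peaks listed in NT and the 2671 in GS, 0 overlapped a cluster or lay within 100 kb of one. A count of 0 allows a share of up to 3.33% of the NT peaks and 0.112% of the GS peaks, or 5.36 peaks per Mb of cluster, for counting error alone. At the density over the genome, 0.0339 peaks per Mb in NT and 1.01 in GS, the clusters would hold 0.0190 and 0.563 peaks, so a lack of peaks was not detectable at this size. The nearest GS peak lay 452 kb beyond the 13 end of HoxB, on chromosome 11 from 95596932 to 95598004, with a score of 546 as the authors gave it. It was the 1 listed peak within 500 kb of any cluster. The nearest GS peaks were 554 kb from HoxC, 982 kb from HoxA and 1011 kb from HoxD, and the nearest NT peak to any cluster was 11004 kb from HoxC. SIRT7 ChIP from KO cells was not analysed here, so signal independent of SIRT7 could not be recognised in either list.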

How the data were processed

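The segmentations name a state (U1 to U4) for each 200 bp bin of 22 chromosomes, as deposited by the authors, 1 file per genotype and treatment for both replicates. The SIRT7 peak lists carry a score that the authors deposited with each peak, a whole number of at most 1000 and how it was made is nowhere stated in the sources used here. Per the submitters' processing notes, the tools included MACS 1.4.2, Bowtie and deepTools 2.4.2, and the builds mm9 and hg19, with no role given for any. No source used here states read totals, so depth is unknown. Signal tracks were not analysed here.

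Bins of each cluster were taken from the files by mm9 position, orientated from the 13 to the 1 end, and counted by state with Python 3.11.15 and NumPy 2.4.6. The order of members came from RefSeq (GRCm38.p6). Gene positions in mm9 were not used here, so states are given by position along the cluster, and neighbouring and cofactor genes were not analysed here. By the rule for what is named, these were the longest run of each of U2, U3 and U4 and any stretch of at least 5 kb that changed state, of which there was none. Shorter stretches named here were chosen after their values were seen. A bin counted as changed if its state differed, and the share of all bins that did is the background. A peak counted as inside with an overlap of 1 bp. The clusters, members and lists were chosen with earlier results of these data known. Counting was tested on simulated segmentations. Alternatives were bins of 1 kb, segments under 1 kb joined to a neighbour, and bounds moved by 10 kb. U3 and U4 counted as 1 state was added after seeing the data.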

Additional observations from a re-analysis of the deposited data

Results flagged for a closer look

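Between treatments, the U4 share of the Hox clusters was lower in GS in WT (-2.25 percentage points, lower in 4 of 4 clusters) and higher in GS in KO (3.11 percentage points, higher in HoxA, HoxB and HoxC, -0.500 in HoxD). The U2 share went the other way, higher in GS in WT (1.57 percentage points) and lower in KO (-1.04 percentage points), whereas over the genome U2 was higher in GS in both (0.250 and 0.516 percentage points). In clusters trimmed by 10 kb the WT value was 0.333. From HoxA to HoxD the U2 difference was 0, 1.08, 1.28 and 4.33 percentage points in WT. In KO it was -2.92, -0.541, 0 and -0.833, so the largest differences lay in different clusters. Between genotypes, U4 was lower in KO in NT (-4.54 percentage points) and higher in KO in GS (0.821 percentage points). The last difference had a counting interval of -0.692 to 2.33, which includes 0 but treats bins as independent. It was 0.179 with 1 kb bins and 0.333 in trimmed clusters. It was not shared by all clusters, with -0.973 in HoxB and -2.17 in HoxD. These results are listed because the direction of the difference was opposite in the 2 groups compared. With 1 pooled segmentation per condition, neither the differences nor their contrast was tested. The U4 differences had the same signs over the whole genome (-0.382, 0.815, -0.963 and 0.235 percentage points in the order given here).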

How the results depend on the processing

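Of 74 alternative values, 68 could be set against a 95% interval for counting error, which treats bins as independent. For differences it also ignores that both segmentations share the same bins, and it measures no spread between replicates. Of the 68 values, 46 stayed inside it and 22 lay outside. No difference whose interval left out 0 changed sign, which is no test between conditions. The shares of bins in different states depended on the grain and the bounds. For GS against NT in WT, GS against NT in KO, KO against WT in NT and KO against WT in GS, the shares of 11.4, 10.1, 10.1 and 10.6% became 10.0, 7.68, 7.68 and 8.57% with 1 kb bins (9.17, 10.8, 11.1 and 9.69% over the genome). With segments under 1 kb joined they were 8.36, 4.11, 6.57 and 5.79% (9.05, 10.6, 10.9 and 9.55% over the genome). With clusters extended by 10 kb they were 13.2, 12.5, 11.7 and 12.6%. With U3 and U4 counted as 1 state they were 3.50, 2.11, 1.07 and 3.07%. With clusters trimmed by 10 kb the share was 9.33% in WT and 8.67% between genotypes in GS. The U2 difference of GS minus NT in WT, 1.57 percentage points, was 0.333 in trimmed clusters. That of KO minus WT in GS, -2.82, was -1.21 in trimmed clusters and -2.11 with short segments joined. The U4 difference of KO minus WT in NT, -4.54, was -2.86 with 1 kb bins. The U3 difference of GS minus NT in WT, -0.0357 with an interval of -1.83 to 1.76, was 1.43 with short segments joined and 0.708 in trimmed clusters. The cause of these shifts was not tested. The other 6 values were SIRT7 peak counts, 0 in every alternative run. No paired analysis was possible because each file pools both replicates and no result comes from a test. Unknown depth limits all U4 values, whose median segment is a single bin.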
